A study of Mus musculus with 15 samples.

Results

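Metallothioneins are small, cysteine-rich proteins that hold zinc and copper ions. The genes described are Mt1, Mt2 and Mt3, 3 of the 15932 genes in a single-cell count table of mouse striatum, and all 3 were measured. They were chosen by name, with their levels across the deposited cell classes, their spread between astrocytes and their levels under each drug in view. Levels across classes and the size of the spread between astrocytes are therefore given as a description, with no test. The comparisons between drugs below were likewise made with earlier results in view. Of the 15 male C57BL/6J mice, bought when 8 weeks old and kept for about 1 week before dosing, 5 received haloperidol from implanted pellets, 5 olanzapine in food and 5 placebo, all for 28 to 29 days. Haloperidol is a typical and olanzapine an atypical antipsychotic, and as each drug had its own route, drug and route cannot be told apart. The form in which placebo was given is not stated in the sources used here. Each mouse was a separate animal and a separate library. Replicate numbers name mice in order of deposit and pair nothing.

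Mt1 and Mt2 are made in many tissues. Their transcription is raised by zinc and other metals through the metal-responsive factor MTF-1, which binds metal response elements in their promoters, and by glucocorticoids and stress. Mt3, known as growth inhibitory factor, is made mainly in the brain and is much less responsive to metals. Within the brain, metallothioneins are known chiefly as products of astrocytes, the glial cells that take up transmitter and buffer ions, and they take part in zinc storage and in the defence against oxidants.

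The genes lie side by side on the plus strand of mouse chromosome 8 (build GRCm38.p6), each with 3 exons in the first annotated transcript. Mt3 spans 94152607 to 94154148, Mt2 spans 94172618 to 94173567, and Mt1 spans 94178883 to 94180327, so the 3 genes occupy 27.7 kb. Mt4, the remaining gene of the cluster, known from stratified epithelia, lies at 94137204 to 94139031 and has no row in the table. The promoters are shown because the genes moved together across cells and mice, as described further on. Each is the 250 bases before the start in a RefSeq promoter table of the same build, on the plus strand and 5′ to 3′, at chr8:94178839-94179088, chr8:94172368-94172617 and chr8:94152357-94152606 in the order printed. For Mt1 the start in that table lies downstream of 94178883, the start of the span given above. Most of the Mt1 window therefore lies inside that span. Capitals mark the core of the metal response element, searched on both strands as TGCACNC and TGCGCNC.
Mt1: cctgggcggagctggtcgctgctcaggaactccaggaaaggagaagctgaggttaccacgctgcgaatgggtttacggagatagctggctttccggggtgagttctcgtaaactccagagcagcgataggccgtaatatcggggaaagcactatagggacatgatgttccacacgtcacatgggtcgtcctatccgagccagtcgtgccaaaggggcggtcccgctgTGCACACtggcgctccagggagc
Mt2: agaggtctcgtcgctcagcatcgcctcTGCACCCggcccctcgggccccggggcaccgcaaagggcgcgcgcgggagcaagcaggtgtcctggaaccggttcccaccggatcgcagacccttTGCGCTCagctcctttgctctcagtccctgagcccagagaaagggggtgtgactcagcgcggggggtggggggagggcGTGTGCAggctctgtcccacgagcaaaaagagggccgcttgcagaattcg
Mt3: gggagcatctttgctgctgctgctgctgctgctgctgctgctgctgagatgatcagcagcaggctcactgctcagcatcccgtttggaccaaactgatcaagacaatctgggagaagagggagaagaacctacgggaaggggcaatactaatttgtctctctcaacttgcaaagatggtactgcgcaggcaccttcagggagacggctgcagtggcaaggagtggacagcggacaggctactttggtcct
Mt1 held 1 match, at -23 to -17 from that start, Mt2 held 3 and Mt3 held 0. Among 32851 promoter windows of that length, 21.4% held at least 1 match and 1.26% at least 3. The counts depended on which start was used. In the 250 bases before starts in the GENCODE annotation that lie 122 and 152 bases downstream, Mt1 had 5 matches, and before a Mt3 start 139 bases downstream Mt3 had 3. Mt2 had 3 matches before a start 46 bases downstream and 4 before a start 242 bases downstream. A match is a run of letters and was not tested as a binding site.

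After removal of 23 cells with over 20% mitochondrial counts and 82 called doublets, 5476 of 5581 deposited cells were left, holding 18254037 unique molecular identifiers (UMIs, 1 per captured RNA molecule). Mice contributed 70 to 1172 cells and 215990 to 4235427 UMIs. Per the labels, 500 cells were loaded per mouse, and 4 of the 15 mice had more deposited cells than that. The mice numbered 1 to 4 in the labels (haloperidol 1 and 2, olanzapine 1 and 2) had the fewest cells, and 38 of the 82 doublets came from olanzapine 2. These were 38 of its 128 cells, called at an automatic score threshold of 0.0348. The other mice had thresholds of 0.0796 to 0.237 and 0 to 12 doublets each. Whether the 38 cells were true doublets was not tested. Cell barcodes were shared between mice in 223 cases, with 0 identical profiles. Comparing whole profiles cannot show whether single molecules passed between libraries, and this was not tested. All 10 astrocyte markers were detected in the astrocyte class, at a summed 17399 counts per 1000000 UMIs (CPM), against 175 to 1031 CPM in the other classes. Myelin markers summed to 66174 CPM in cells labelled olig precursor and to 2271 CPM in cells labelled oligodendrocyte, which carried the precursor markers instead, so these 2 classes are given by their labels.

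All 3 genes were highest in astrocytes. Levels are UMIs of the gene per 1000000 UMIs of a mouse's cells in that class (CPM), averaged over mice with at least 10 such cells. Because the 3′ kit counts each molecule once, CPM were compared between genes without division by transcript length. In the 1603 astrocytes Mt1 averaged 9632 ± 3132 CPM (SD, n = 15 mice), the 5th highest of all genes there. Mt3 averaged 5588 ± 1698 CPM and ranked 9th, and Mt2 averaged 3309 ± 943 CPM and ranked 22nd. Astrocytes were above every other class within each mouse that had both, for each gene.

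Mt1, after astrocytes, was found at 927 ± 245 CPM in the class other (n = 12), which holds vascular cells. It reached 796 ± 275 CPM in cells labelled olig precursor (n = 9), 486 ± 137 in cells labelled oligodendrocyte (n = 11), 349 ± 124 in neurons (n = 15), 329 ± 111 in microglia (n = 13) and 251 ± 159 in neuroblasts (n = 14). The astrocyte mice, at 5239 to 15979 CPM, stood apart from the 623 to 1333 CPM of the class other. Every later pair of neighbours in this order had overlapping ranges over mice.

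Mt2 followed another order. The class other held 369 ± 139 CPM and neuroblasts 243 ± 154 CPM. Cells labelled oligodendrocyte had 102 ± 56.2 CPM, cells labelled olig precursor 55.6 ± 29.9, neurons 36.9 ± 27.8 and microglia 24.8 ± 18.6. Astrocyte mice ranged from 2069 to 5227 CPM and did not overlap the class other, at 146 to 718 CPM, whereas all lower neighbours overlapped.

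By class mean, Mt3 was the most abundant member in cells labelled oligodendrocyte and in neurons, though not in every cluster of neurons, as given below. Cells labelled oligodendrocyte held 794 ± 242 CPM and neurons 469 ± 261 CPM. The remaining classes were lower, with 122 ± 71.5 CPM in cells labelled olig precursor, 105 ± 114 in the class other, 91.9 ± 84.1 in neuroblasts and 51.9 ± 43.6 in microglia. The neighbours below astrocytes again overlapped.

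**Figure D1:**
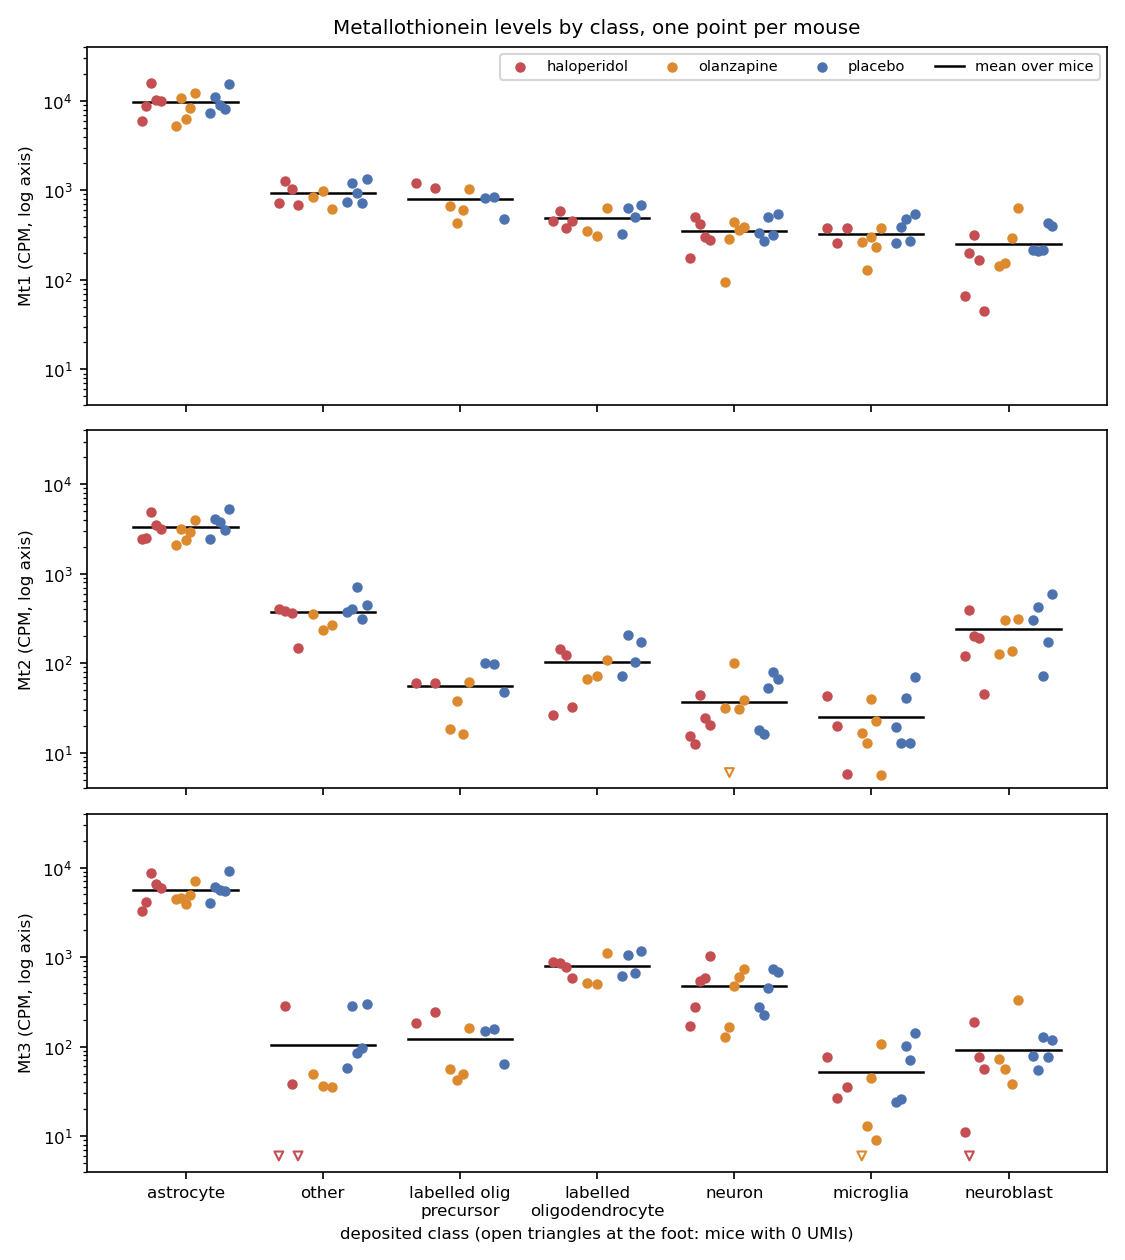
Level of Mt1, Mt2 and Mt3 (counts per 1000000 UMIs, log axis) in each deposited class, 1 point per mouse with at least 10 cells, coloured by drug, with the mean over mice as a line. Astrocytes lie above every other class for each gene, with a mean of 9632 CPM for Mt1 against 927 CPM in the class other.

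The balance between the 3 genes differed between classes. Summed over mice, astrocytes held 2.90 Mt1 molecules for each Mt2 molecule, and single mice ranged from 2.36 (placebo 3) to 3.47 (haloperidol 2). The same ratio was 15.1 in cells labelled olig precursor, 10.4 in microglia, 8.63 in neurons and 4.52 in cells labelled oligodendrocyte. In neuroblasts it was 0.848 (564 Mt1 and 665 Mt2 molecules), but 1.05 without olanzapine 3, so which of the 2 genes led there rested on that mouse. Astrocytes held 1.70 Mt1 molecules for each Mt3 molecule. In neurons, at 0.691, and in cells labelled oligodendrocyte, at 0.622, Mt3 was the more abundant. The counts rested on 1459 Mt1 and 2111 Mt3 molecules in neurons.

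Free RNA in droplets can place molecules of an abundant astrocyte gene in other cells, so Aldoc (aldolase C, a glycolytic enzyme of astrocytes) and Slc1a2 (the main astrocyte glutamate transporter) were read alongside. Cells were thinned to 1000 UMIs, which left out 4 to 105 shallower cells per class. Among 912 thinned neurons 28.6% held Mt3 and 26.4% Mt1, against 3.40% with Aldoc and 2.52% with Slc1a2. Unthinned, 55.8% of 958 neurons held Mt3, 54.8% Mt1 and 13.2% Aldoc, at a median of 3302 UMIs per neuron, against 2228 per astrocyte. Mt2 was in 2.74% of thinned neurons (95% Wilson interval 1.86 to 4.02%) and 3.24% of thinned microglia (Aldoc 3.13%), shares close to those of Aldoc, and no expression of Mt2 was read from them. In cells labelled oligodendrocyte, where Mt3 was second highest, 48.0% of 410 thinned cells held Mt3 and 36.8% Mt1, but 16.8% held Aldoc and 25.9% Slc1a2. Summed over mice, Mt1 molecules for each Aldoc molecule numbered 2.18 in astrocytes and 1.75 in cells labelled oligodendrocyte, against 4.95 in neuroblasts, 8.11 in neurons, 10.9 in microglia, 10.9 in cells labelled olig precursor and 11.0 in the class other. For Mt3 the same ratio was 1.28 in astrocytes, 2.82 in cells labelled oligodendrocyte and 11.7 in neurons. It was 1.56 in the class other, 1.60 in cells labelled olig precursor, 1.79 in microglia and 1.85 in neuroblasts. Mt2 molecules for each Aldoc molecule numbered 0.72 in cells labelled olig precursor and 0.751 in astrocytes. Of the thinned cells labelled olig precursor, 4.06% held Mt2 and 5.80% Aldoc. The part of free RNA in the levels outside astrocytes was not tested. In microglia Mt1 was in 28.0% and Mt3 in 6.02% of thinned cells. These intervals and shares cover counting error only.

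Clusters made without the 3 genes showed which cells carried these values, with all mice summed. Among neurons, 124 cells led by Sst, Npy and Nos1, the markers of a class of striatal interneurons, had 872 CPM of Mt3 and 94.7 CPM of Mt1. In 359 cells led by Tac1 and Drd1, the direct-pathway projection neurons' markers, Mt3 was at 237 and Mt1 at 260 CPM. The 230 cells led by Penk and Drd2, markers of indirect-pathway projection neurons, were much alike, at 245 and 287 CPM. Both genes were high in a cluster of 103 deeply sampled neurons led by Nrgn, at 913 CPM of Mt3 and 810 CPM of Mt1. In that cluster the median neuron held 8930 UMIs.

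The class other divided along vessel layers. Smooth muscle-like cells (99 cells) had 1142 CPM of Mt1 and 368 CPM of Mt2, and endothelial-like cells (265 cells) had 1118 and 445 CPM. Pericyte-like cells (108 cells), which share the vessel wall with both, had 241 and 92.1 CPM. In 52 fibroblast-like cells the pooled levels were 554 CPM of Mt1 and 484 CPM of Mt2, from 71 and 62 molecules. The 1 mouse with at least 10 such cells had 560 CPM of Mt1 and 299 CPM of Mt2. Mt2 was above Mt1 in 1 named cluster, the 146 cycling progenitor-like cells, at 575 CPM against 383 CPM of Mt1, and in 5 of the 7 mice with at least 10 such cells. Outside the cell cycle, 562 neuroblast-like cells held 45.5 CPM of Mt2 and 138 CPM of Mt1. Clusters are described over pooled mice, with no test.

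Astrocytes differed widely in metallothionein content. After thinning to 1000 UMIs, 1498 astrocytes had a median of 7 Mt1 molecules, with 1 at the 10th and 20 at the 90th percentile and a maximum of 73. No Mt1 molecule was seen in 6.41% of them and over 10 in 31.9%. For Mt3 the median was 4 and the 90th percentile 12, with 11.7% of astrocytes at 0. Mt2 had a median of 2 and a 90th percentile of 8, with 17.6% at 0.

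Spread was summarised by the Fano factor, the variance over the mean, which is 1 where only random sampling of molecules acts. It was computed per mouse over 1470 astrocytes of the 13 mice with at least 20 thinned astrocytes, and ranked among 624 genes with a mean of at least 0.2 molecules. Mt1 had a Fano factor of 7.14 ± 2.42 (SD, n = 13), the 4th highest after Malat1, Cst3 and Apoe. Mt3 followed in 8th place at 4.28 ± 1.07, and Mt2 was 16th at 2.88 ± 0.65, where the median gene had 1.14. Aldoc, at 3.74 molecules per cell against 8.99 for Mt1, 5.22 for Mt3 and 3.25 for Mt2, had 3.44 ± 0.63, above Mt2, and Slc1a2 had 1.69 ± 0.40. The Fano factor grows with the level, so overdispersion (variance minus mean, over the squared mean) was also taken. It was 0.705 ± 0.178 for Mt1, 0.658 ± 0.179 for Mt3 and 0.587 ± 0.112 for Mt2, ranks 85, 105 and 142 of 624 genes. Aldoc had 0.681 ± 0.253 (rank 96), between Mt1 and Mt3, and the median gene had 0.357. Overdispersion was lower in the 880 astrocytes that could be thinned to 2000 UMIs, at 0.463 for Mt1, 0.405 for Mt3 and 0.407 for Mt2. This setting leaves out the shallower of the 1470 astrocytes, so depth and the choice of cells cannot be told apart.

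**Figure D2:**
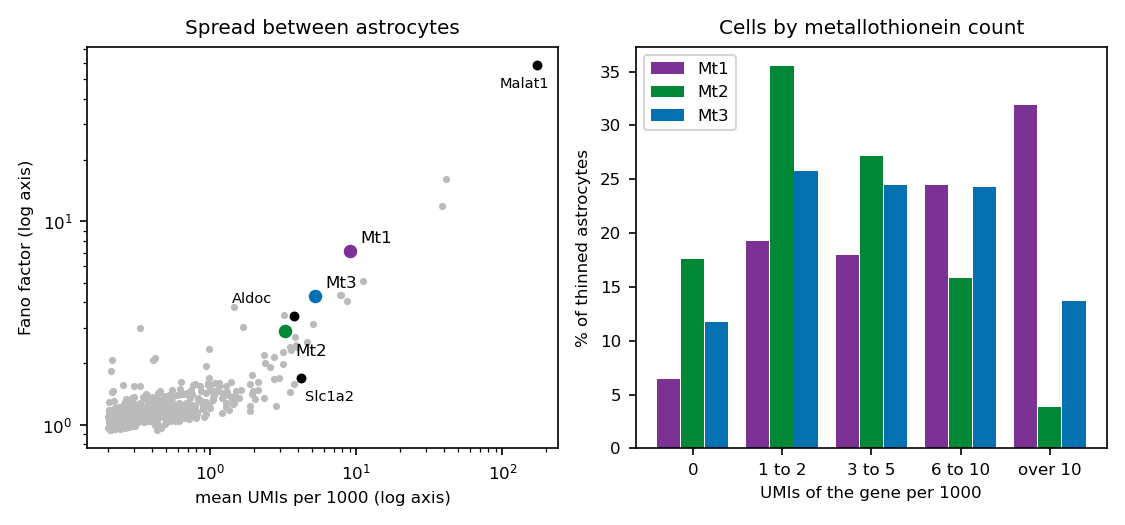
Left, Fano factor against mean molecules per astrocyte thinned to 1000 UMIs (both log axes), 1 point per gene, averaged over 13 mice, with the metallothionein genes, Malat1, Aldoc and Slc1a2 marked. Right, percent of 1498 thinned astrocytes by number of molecules of each gene, where 31.9% held over 10 of Mt1 and 3.87% over 10 of Mt2.

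The 3 genes varied together from astrocyte to astrocyte. Within mice, the correlation of log2(molecules + 1) over thinned astrocytes averaged 0.693 for Mt1 and Mt3 (0.594 to 0.812 over 13 mice), 0.605 for Mt1 and Mt2 (0.426 to 0.751) and 0.516 for Mt2 and Mt3 (0.339 to 0.691). These points share library and depth, and the values are a description. Among the other 621 genes, those most like Mt1 were Aldoc at 0.573, Dbi at 0.535, Ckb at 0.460, Glul at 0.459 and Cox8a at 0.442. Dbi makes an acyl-CoA-binding protein, Ckb the brain creatine kinase, Glul glutamine synthetase and Cox8a a subunit of cytochrome c oxidase. For Mt3 the 5 were Aldoc, Dbi, Glul, Chchd10 and Cox8a, at 0.439 to 0.575, and for Mt2 they were Dbi, Aldoc, Cox8a, Eif1 and Chchd2, at 0.334 to 0.420. Chchd2 and Chchd10 make mitochondrial proteins and Eif1 a translation initiation factor.

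At the other end stood Malat1, a long noncoding RNA kept in the nucleus, at -0.393 with Mt1, -0.345 with Mt2 and -0.330 with Mt3. Htra1 (a secreted serine protease), F3 (tissue factor) and Gpr37l1 (a glial orphan receptor) were also among the 5 least like each gene, at -0.280 to -0.431. Other astrocyte markers did not follow Aldoc: Slc1a2 was at -0.01, Aqp4, the water channel, at -0.10 and Gja1, a gap junction protein, at -0.26 with Mt1. The median gene was at 0.04.

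Likeness was also taken over the 89 sums of mouse and class, as Pearson r of log2(CPM + 10) among 3666 genes with a mean of at least 50 CPM. These sums share mice and are dominated by the contrast of astrocytes with the other classes. Mt1 was most like Fam107a (0.905), Gja1 (0.896), Prodh (0.895), Gjb6 (0.887) and Cyp2d22 (0.878), and Mt2 was most like Fam107a (0.874), Gja1, Prdx6, Gstm1 and Cyp2d22 (0.865). Mt3 had other neighbours, namely Baalc (0.918), Acsl6 (0.905), Pla2g7 (0.896), Ttyh1 (0.892) and Kcnk1 (0.887). Mt1 and Mt2 reached 0.816 with each other, and Mt3 reached 0.748 with Mt1 and 0.606 with Mt2.

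A group of astrocytes with almost no Malat1 carried more metallothionein RNA. This split, at 1% of a cell's UMIs, was chosen after the data were seen. It took in 203 of 1603 astrocytes (12.7%), of which 122 had 0 Malat1 molecules, and 36 astrocytes lay near the limit, between 0.5 and 2%. These cells were shallower, with a median of 1178 UMIs against 2491 in the other astrocytes, and had 4.91% against 3.80% mitochondrial UMIs. In the 8 mice with at least 10 such cells, Mt1 averaged 23884 ± 5959 CPM in them and 9899 ± 3072 CPM in the other astrocytes, a mean fold of 2.52 (1.42 to 3.14 over mice). Mt2 averaged 7436 ± 1101 CPM against 3574 ± 870 CPM, a mean fold of 2.14, and Mt3 averaged 13841 ± 2733 CPM against 5916 ± 1577 CPM, a mean fold of 2.44. All 3 genes were higher in the low-Malat1 cells of each of the 8 mice. Malat1 took part in choosing these cells, and its share of UMIs counts in the total behind CPM, so the differences are given without a test. A rise was not confined to metallothionein RNA. Aldoc was at 10878 CPM in a cluster of 177 cells with 445 CPM of Malat1, against 5417 CPM in the largest astrocyte cluster (698 cells).

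**Figure D3:**
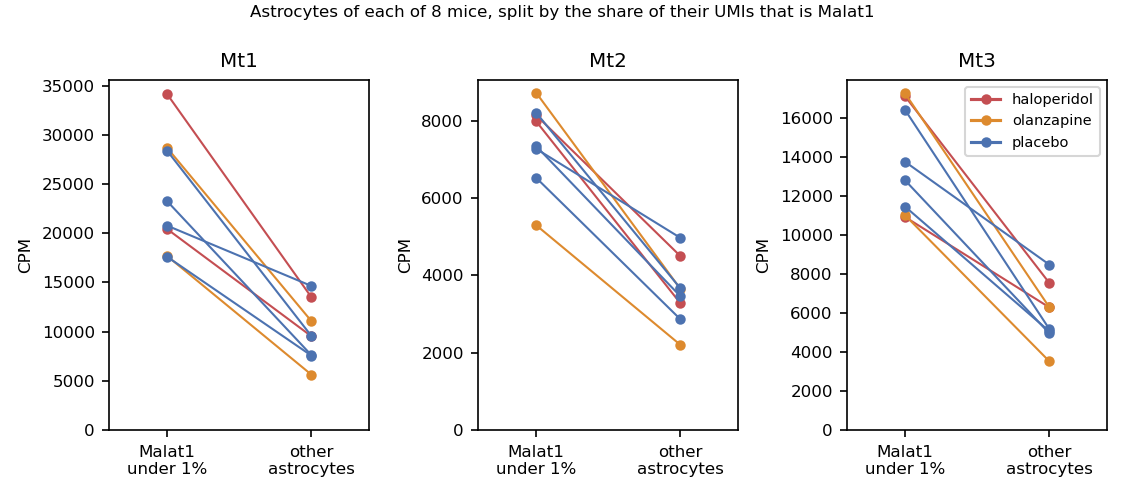
Level of each gene (counts per 1000000 UMIs) in astrocytes with under 1% Malat1 UMIs, left, and in the other astrocytes, right, with a line for each of the 8 mice with at least 10 low-Malat1 astrocytes. Every line falls to the right, with mean folds of 2.52 for Mt1, 2.14 for Mt2 and 2.44 for Mt3 (low-Malat1 over other).

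Low-Malat1 cells made up 0 to 23.6% of a mouse's astrocytes, 10.9 ± 8.96% in haloperidol, 9.25 ± 3.20% in olanzapine and 13.3 ± 6.26% in placebo mice (SD, n = 5 each). Over the 15 mice this share correlated with log2 CPM in astrocytes at r = 0.676 for Mt1, 0.710 for Mt2 and 0.717 for Mt3. Without haloperidol 1 and haloperidol 3, r was 0.465, 0.598 and 0.498. These cells count in the level of their mouse, and the split was chosen after the data were seen. The values of r are therefore a description and do not measure the part of these cells in the differences between mice. Leaving the low-Malat1 cells out, the Fano factor was 5.45 for Mt1, 2.43 for Mt2 and 3.24 for Mt3, and the correlation of Mt1 with Mt3 over cells was 0.618.

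Across mice the 3 genes also varied together. Over the astrocytes of all 15 mice, log2 CPM of Mt1 and Mt2 correlated at r = 0.938 and rho = 0.943. Mt2 and Mt3 had r = 0.909 and rho = 0.904, and Mt1 and Mt3 had r = 0.871 for both. In two-sided permutation tests with 100000 resamples, p for r was 1e-05 (the smallest these resamples can give), 2e-05 and 4e-05, and at most 4e-05 after Benjamini-Hochberg adjustment over the 3 pairs. Without haloperidol 3 and placebo 5, the mice farthest from the median and the highest for each gene, r was 0.888, 0.827 and 0.760. Without the mice numbered 1 to 4 it was 0.951, 0.960 and 0.974. The genes of a pair share a library and a total. No group had the 6 mice that a correlation within it would need.

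The drug question was whether the level of each gene in a class differed between treatments. Each mouse gave 1 sum of counts per class, the fit took in all genes, and 0 of the 16 gene and class pairs tested for haloperidol against placebo were called by edgeR's quasi-likelihood test at a Benjamini-Hochberg adjusted p under 0.05. Over all genes and classes 0.0097% of 20623 tests were called. For olanzapine against placebo 0 of 19 pairs were called, where 0.0472% of 23324 tests were. For haloperidol against olanzapine 0 of 16 were called, where 0% of 20623 tests were. DESeq2 called 0 of these pairs as well. At an unadjusted p under 0.05 there were 0, 3 and 0 pairs in the same order of comparisons, against 3.98%, 4.08% and 3.41% of all tests. In astrocytes, 0 of the 4515 genes tested were called in any of the 3 comparisons.

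Mt1 in astrocytes was at 6016, 8721, 15979, 10135 and 9872 CPM in the haloperidol mice, at 5239, 10649, 6305, 8430 and 12256 CPM in the olanzapine mice, and at 7295, 11185, 8914, 8158 and 15334 CPM in the placebo mice. The groups overlapped almost entirely, with 1 high mouse each under haloperidol and placebo. The log2 fold change was -0.01 ± 0.23 (SE) for haloperidol against placebo, with a 95% interval of -0.47 to 0.44. For olanzapine against placebo it was -0.25 ± 0.23 (-0.71 to 0.21), and for haloperidol against olanzapine 0.24 ± 0.23 (-0.22 to 0.70).

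Mt2 in astrocytes was at 2455, 2517, 4933, 3536 and 3121 CPM in the haloperidol mice, at 2069, 3195, 2375, 2890 and 3988 CPM in the olanzapine mice, and at 2421, 4054, 3781, 3078 and 5227 CPM in the placebo mice. Ranges overlapped, with the lowest mouse under olanzapine and the highest under placebo. The log2 fold changes were -0.17 ± 0.22 for haloperidol against placebo (-0.60 to 0.27), -0.35 ± 0.22 for olanzapine against placebo (-0.79 to 0.09) and 0.18 ± 0.22 for haloperidol against olanzapine (-0.26 to 0.63).

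Mt3 in astrocytes was at 3274, 4150, 8682, 6540 and 5923 CPM in the haloperidol mice, at 4505, 4519, 3939, 4991 and 7027 CPM in the olanzapine mice, and at 4025, 6139, 5608, 5433 and 9069 CPM in the placebo mice. Haloperidol mice covered nearly the whole span of the other groups. The log2 fold changes were -0.09 ± 0.22 for haloperidol against placebo (-0.53 to 0.35), -0.28 ± 0.22 for olanzapine against placebo (-0.73 to 0.16) and 0.19 ± 0.22 for haloperidol against olanzapine (-0.26 to 0.64). The adjusted p of edgeR's quasi-likelihood test was 0.997 for all 3 genes under haloperidol against placebo and 0.998 under olanzapine against placebo. Without the mice numbered 1 to 4, the haloperidol against placebo values changed sign, to 0.20 for Mt1, 0.03 for Mt2 and 0.18 for Mt3, with none called. Without the low-Malat1 cells, olanzapine against placebo stood at -0.32, -0.38 and -0.36.

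**Figure D4:**
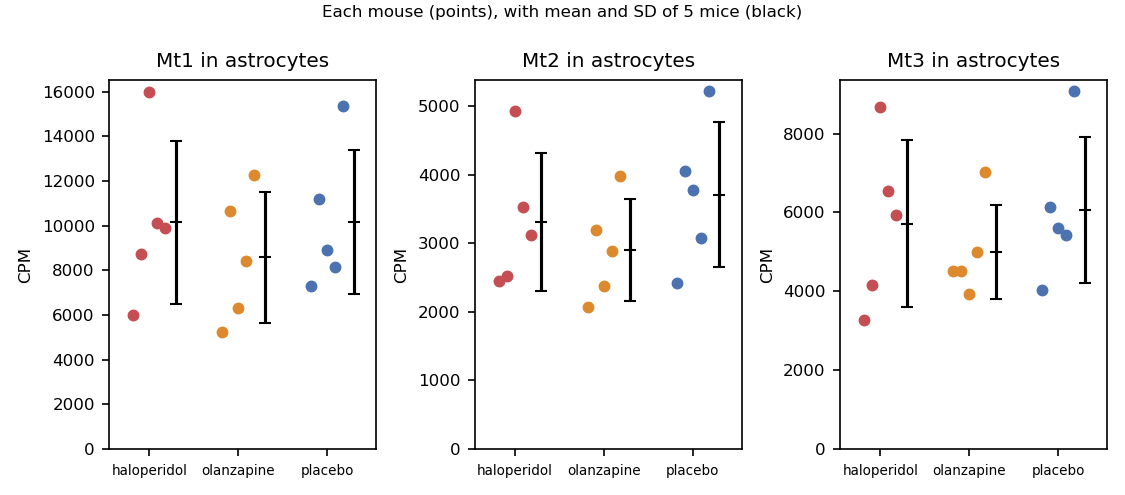
Level of Mt1, Mt2 and Mt3 in astrocytes (counts per 1000000 UMIs), 1 point per mouse, for haloperidol, olanzapine and placebo, with the mean and SD of 5 mice in black. The groups overlap for each gene, and Mt1 averaged 10145, 8576 and 10177 CPM in these groups.

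Over all classes, astrocytes included, most fitted values lay below 0 for each drug against placebo. The log2 fold change was below 0 in 15 of 16 pairs for haloperidol, where 50.3% of all tests were below 0, and in 17 of 19 for olanzapine, where 51.1% were. For haloperidol against olanzapine it was below 0 in 4 of 16 pairs, where 49% of tests were. These 51 values are not independent, since genes share mice and libraries and both drug comparisons use the same 5 placebo mice. Mt2 passed the filter on low counts in 5 of the 7 classes, all but neurons and microglia, and the class labelled olig precursor had only 2 haloperidol mice with enough cells.

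In microglia, the resident immune cells, Mt1 was at 268, 130, 299, 235 and 378 CPM in the olanzapine mice, against 257, 390, 479, 270 and 545 CPM in the placebo mice. The ranges overlapped, with 3 placebo mice above every olanzapine mouse. The log2 fold change was -0.55 ± 0.23, with an unadjusted p of 0.0234 and an adjusted p of 1.00 in edgeR's quasi-likelihood test. The 3 haloperidol mice with enough microglia had 378, 261 and 384 CPM, and haloperidol against placebo gave -0.21 ± 0.26.

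Mt2 gave the other values with an unadjusted p under 0.05. In cells labelled olig precursor it was at 18.6, 37.4, 16.3 and 61.5 CPM in the olanzapine mice, against 100, 97.5 and 47.7 CPM in the placebo mice. These levels came from 1 to 8 molecules per olanzapine mouse and 3 to 19 per placebo mouse. Mt2 molecules for each Aldoc molecule numbered 0.72 in this class, near the 0.751 of astrocytes, and the part of free astrocyte RNA was not tested. The log2 fold change was -1.21 ± 0.53 (unadjusted p = 0.0312, adjusted p = 1.00, edgeR quasi-likelihood test). In the class other Mt2 was at 358, 237 and 266 CPM in the olanzapine mice, against 378, 407, 718, 313 and 446 CPM in the placebo mice. There the log2 fold change was -0.58 ± 0.28 (unadjusted p = 0.0495, adjusted p = 0.511, edgeR quasi-likelihood test).

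The largest fitted value was that of Mt3 in the class other. It was at 48.8, 36.5 and 35.0 CPM in the olanzapine mice and at 58.2, 283, 84.4, 96.4 and 297 CPM in the placebo mice. The 2 groups did not overlap, but their nearest mice were at 48.8 and 58.2 CPM and the counts were small. All mice together held 234 Mt3 molecules in this class. The sum was 219, 232 and 229 without olanzapine 3, 4 or 5, and 224, 177, 228, 222 and 172 without placebo 1, 2, 3, 4 or 5. The log2 fold change was -2.04 ± 0.97 (adjusted p = 0.536, edgeR quasi-likelihood test), and it turned to 0.84 when called doublets were kept. The haloperidol mice had 0, 283, 37.8 and 0 CPM. Mt3 molecules for each Aldoc molecule numbered 1.56 in the class other, near the 1.28 of astrocytes, and the part of free astrocyte RNA was not tested. In neurons, where Mt3 was among the more abundant members, it was at 168, 274, 536, 580 and 1018 CPM in the haloperidol mice, at 128, 166, 475, 600 and 728 CPM in the olanzapine mice and at 279, 223, 449, 741 and 676 CPM in the placebo mice. The mice numbered 1 to 4 were the lowest of their groups. The log2 fold changes were 0.11 ± 0.47 for haloperidol against placebo and -0.09 ± 0.46 for olanzapine against placebo.

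**Figure D5:**
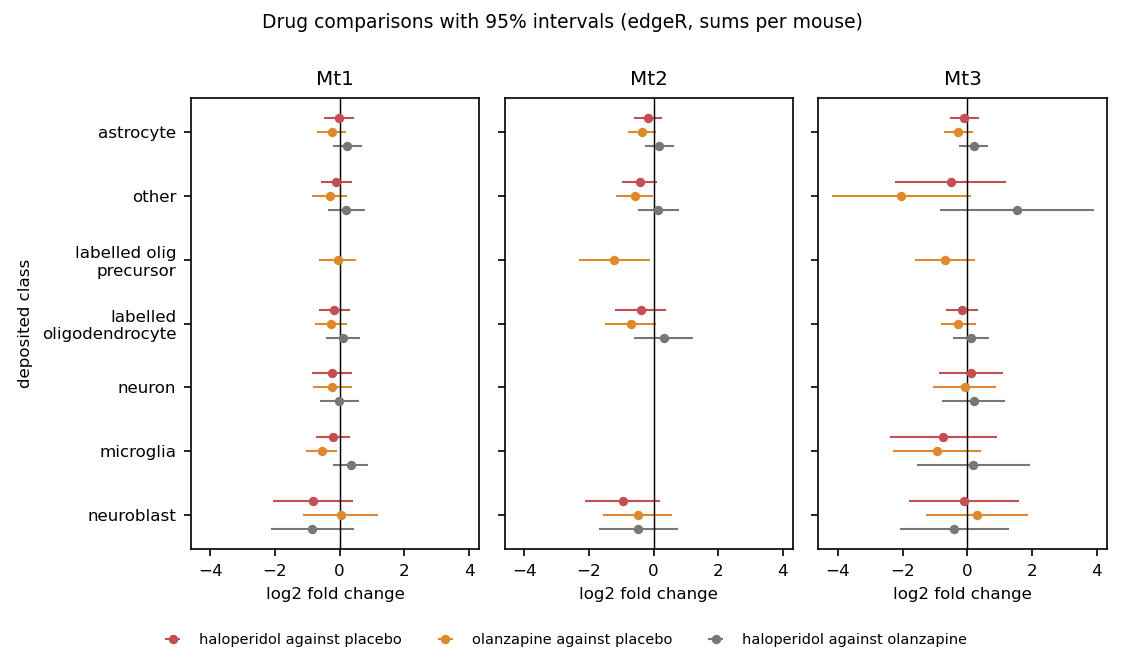
Log2 fold change of Mt1, Mt2 and Mt3 in each deposited class with its 95% interval, from sums per mouse fitted with edgeR, for haloperidol against placebo, olanzapine against placebo and haloperidol against olanzapine (first group over second). Astrocyte intervals are among the narrowest, and 3 of the 51 intervals leave out 0, none of them called after adjustment.

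Cell-to-cell spread was compared between drugs with the per-mouse Fano factor in astrocytes. For Mt1 it averaged 7.06 ± 2.48 in haloperidol (n = 5), 6.53 ± 0.64 in olanzapine (n = 3) and 7.59 ± 3.26 in placebo mice (n = 5). Mt2 averaged 2.89 ± 0.61, 2.72 ± 0.49 and 2.97 ± 0.86 in the same groups, and Mt3 3.92 ± 0.89, 4.04 ± 0.48 and 4.77 ± 1.42. None of the 9 differences passed an exact two-sided permutation test over mice. The unadjusted p was 0.294 to 0.964 and the adjusted p 0.964 in each. The smallest p these designs allow is 0.00794 with 5 mice against 5 and 0.0357 with 3 against 5, which for 1 difference alone adjust over the 9 to 0.0714 and 0.321. A lone difference could thus not have passed the adjusted threshold, whatever its size.

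Genes of related pathways were read in the same astrocyte fits. Of 37 metal handling genes (transporters, chaperones and stores for zinc, copper and iron), 36 were in the table and 15 passed the filter, with 0 called in either direction in any comparison. Their median log2 fold change was -0.04 for haloperidol against placebo, where all genes had -0.01, and -0.09 for olanzapine against placebo, where all genes had -0.02. The most abundant were the ferritin chains Fth1 (2424 ± 548 CPM) and Ftl1 (845 ± 172 CPM), the zinc importer Slc39a12 (305 ± 90.7 CPM) and the copper chaperone Cox17 (166 ± 64.0 CPM), so each metallothionein gene was above all of them. Fth1 had a log2 fold change of 0.01 ± 0.21 for haloperidol and -0.06 ± 0.21 for olanzapine against placebo. Cox17 had 0.12 ± 0.24 and -0.43 ± 0.24. Across astrocytes Fth1 correlated with Mt1 at 0.363 and Slc39a12 at -0.12.

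Glucocorticoid-induced genes, the transcripts raised by the hormone that also raises Mt1 and Mt2, were called in 0 of 5 tested members in each comparison. Their median was 0.29 for haloperidol and -0.01 for olanzapine against placebo. Tsc22d3, the highest of them at 570 ± 272 CPM and the gene of a glucocorticoid-induced leucine zipper protein, had 0.57 ± 0.29 and 0.03 ± 0.30. Klf9 (299 ± 138 CPM), a glucocorticoid-responsive transcription factor, had 0.20 ± 0.28 and 0.22 ± 0.29. Over single astrocytes Tsc22d3 and Klf9 were at 0.09 and 0.07 with Mt1.

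The oxidative stress list, targets of NRF2, had 0 of 7 tested members called, with medians of -0.18 for haloperidol and -0.20 for olanzapine against placebo. Prdx1, a peroxiredoxin at 1560 ± 388 CPM, had -0.18 ± 0.23 and -0.22 ± 0.23, and Gstm1, a glutathione transferase at 1098 ± 305 CPM, had -0.26 ± 0.23 and -0.20 ± 0.23. Gstm1 was at 0.419 with Mt1 over astrocytes, and Slc7a11, the cystine transporter of the list, at -0.14. Of the reactive astrocyte list 0 of 3 tested members and of the immediate early list 0 of 7 were called in astrocytes. The medians of reactive genes were -0.02 and -0.18, and those of immediate early genes -0.19 and 0.39, for haloperidol and for olanzapine against placebo. The only called member of these lists in any class was the immediate early factor Egr1, in the class other under olanzapine against placebo, at 1.19 ± 0.26 (adjusted p = 0.0456, edgeR quasi-likelihood test). The call was lost with adjustment over all classes (adjusted p = 0.305) and without olanzapine 3, 4 or 5 or placebo 1, 2, 3 or 5 (adjusted p = 0.0563 to 0.547), and it held in 15 of 23 alternatives (adjusted p = 0.00335 to 0.547 over all of them, edgeR or DESeq2). Not all of the 15 are separate checks. Olanzapine 1, olanzapine 2 and haloperidol 1 did not enter this class, so leaving any of them out changed nothing. Leaving out the mice numbered 1 to 4 was the same fit as leaving out haloperidol 2. Gfap, the intermediate filament of reactive astrocytes, was at 43.9 ± 42.8 CPM, and Junb, an immediate early factor, at 177 ± 144 CPM.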

How the data were processed

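Single-cell libraries of dissociated striatum were made with the 10x Genomics 3′ kit version 2, per the labels' protocols. The authors deposited 1 table of UMI counts per gene and cell, with lines naming each cell's mouse, drug and class. Per the submitters' processing notes, which give no versions, Cell Ranger, Seurat and the mm10 build were used. Every column was mapped to a mouse.

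From these deposited counts, cells with over 20% mitochondrial UMIs were removed, and Scrublet (scanpy 1.11.5) marked 82 doublets (1.48%) when run on each mouse alone. Counts were summed per mouse and class (at least 10 cells) and fitted in R 4.3.3 by edgeR 4.0.16, with all 3 groups in 1 fit per class (low counts removed by filterByExpr, TMM scaling, two-sided robust quasi-likelihood F test). A comparison needed 3 mice per group. Adjustment was by Benjamini-Hochberg over all genes of a class, at 0.05. The edgeR and spread steps were tested on simulated data. DESeq2 1.42.0 was an alternative.

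Permutation tests used scipy 1.17.1. Clusters came from scanpy and leidenalg 0.10.2 (2000 variable genes without the 3 members, 30 components, 15 neighbours, resolution 1) and were named from at least 3 markers. The members, gene lists, markers and tests were chosen with earlier results of these data known. Named genes are the 3 members, the 5 most like each by 2 measures, and the called and 4 most abundant genes of each list.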

Additional observations from a re-analysis of the deposited data

Results flagged for a closer look

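In 4 of 60 groups of mice, 1 mouse stood far from the others of its group by Dixon's test at 95%, a test by which chance flags about 1 in 20 groups. Mt2 in the class other was at 146 CPM in haloperidol 5, where the remaining 3 haloperidol mice had 368 to 405 CPM, and it rested on 6 molecules in 18 cells. Mt3 in the class other was at 283 CPM in haloperidol 3, against 0 to 37.8 CPM in the remaining haloperidol mice. Mt3 in neuroblasts was at 333 CPM in olanzapine 5, against 37.8 to 72.2 CPM in the remaining olanzapine mice. Mt3 in cells labelled olig precursor was at 161 CPM in the same mouse, olanzapine 5, against 42.1 to 55.9 CPM. The 2 mice with high Mt3 outside astrocytes, haloperidol 3 and olanzapine 5, also had the highest Mt3 in astrocytes within their groups, at 8682 and 7027 CPM. The part of astrocyte RNA in these values was not tested.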

How the results depend on the processing

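Mean levels across classes moved by less than the SD between mice under every alternative. Leaving out 1 mouse cannot move a mean by as much as that SD, so 360 of these values are no check of the levels. The remaining 96 values, from other settings, could have moved further and did not. The correlations across mice kept their direction and side of the threshold under every alternative run for them. No log2 fold change of the 3 genes was called under any alternative. The lowest adjusted p was 0.264, and 64 of 1148 values, over 25 of the 51 results, changed sign. Settings without the low-Malat1 cells were added after the data were seen.

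Genes called over all classes numbered 2 for haloperidol against placebo. They numbered 10 with no filter on low counts, 1 with adjustment over all classes, and 0 with at least 20 cells per mouse or with all cells of a mouse summed. For olanzapine against placebo 11 were called, against 17 by DESeq2, 70 with no filter, 19 with at least 20 cells, 19 without the mice numbered 1 to 4, 5 with doublets kept, and 0 with adjustment over all classes or all cells summed. For haloperidol against olanzapine 0 were called, against 8 with no filter. Leaving out 1 mouse gave 0 to 2 for haloperidol against placebo (0 without haloperidol 3 or 4, and 1 without haloperidol 5, olanzapine 3 or 5, or placebo 1, 2, 3 or 5), 0 to 19 for olanzapine against placebo (with haloperidol 2 or placebo 4 out it was 19, with placebo 5 out 5, with olanzapine 4 or placebo 3 out 4, with olanzapine 5 out 2, and with olanzapine 3 or placebo 2 out 0) and 0 to 1 for haloperidol against olanzapine (1 without olanzapine 5). The cause was not tested.

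Sign changes with doublets kept were, for haloperidol against olanzapine, Mt1 in the class other at -0.27, Mt2 there at -0.075, Mt3 there at -1.38, Mt3 in microglia at -0.028 and Mt3 in neurons at -0.022. For olanzapine against placebo they were Mt1 in the class other at 0.17 and Mt3 there at 0.84, and for haloperidol against placebo Mt3 in neurons at -0.023. Without the mice numbered 1 to 4, haloperidol against placebo gave 0.20, 0.025 and 0.18 for Mt1, Mt2 and Mt3 in astrocytes and 0.32 for Mt3 in neuroblasts, and olanzapine against placebo gave 0.011 for Mt1 and 0.32 for Mt3 in neurons. With at least 20 cells, Mt3 gave 0.027 in neuroblasts for haloperidol against placebo and 0.064 in neurons for olanzapine against placebo. Without the low-Malat1 cells, Mt1 in neurons gave 0.0037 for haloperidol against olanzapine.

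With 1 mouse left out, log2 fold changes in astrocytes for haloperidol against placebo ranged from -0.22 (without haloperidol 3) to 0.17 (without placebo 5) for Mt1 and from -0.28 to 0.087 for Mt3, and Mt3 for haloperidol against olanzapine ranged from -0.0100 to 0.32. For olanzapine against placebo, Mt1 ranged from -0.65 to 0.38 in neuroblasts and -0.37 to 0.12 in cells labelled olig precursor, and Mt3 from -0.79 to 0.82 in neuroblasts and -0.33 to 0.15 in neurons. For haloperidol against placebo, Mt1 ranged from -0.30 to 0.049 in the class other, and Mt3 from -0.21 to 0.14 in neuroblasts, -0.25 to 0.34 in neurons and -0.31 to 0.018 in cells labelled oligodendrocyte. For haloperidol against olanzapine, Mt1 ranged from -0.18 to 0.15 in neurons and -0.071 to 0.45 in cells labelled oligodendrocyte, Mt2 from -0.18 to 0.54 in the same cells, and Mt3 from -0.44 to 0.56 in microglia, -0.92 to 0.64 in neuroblasts, -0.15 to 0.45 in neurons, -0.11 to 0.58 in cells labelled oligodendrocyte and -1.08 to 1.86 in the class other.

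In the 880 astrocytes that could be thinned to 2000 UMIs, the Fano factor of Mt2 was 3.76. Overdispersion there was 0.463, 0.407 and 0.405 for Mt1, Mt2 and Mt3. The difference in Fano factor for haloperidol against olanzapine became -1.98 for Mt1 at 2000 UMIs, and for Mt3 it became 0.040 with doublets kept and 0.81 without the low-Malat1 cells. With 1 mouse left out it ranged from -0.52 to 1.11 (Mt1), -0.075 to 0.41 (Mt2) and -0.41 to 0.14 (Mt3). For haloperidol against placebo it ranged from -1.58 to 0.41 (Mt1) and -0.33 to 0.24 (Mt2), and for olanzapine against placebo from -0.50 to 0.078 (Mt2). The correlation of Mt1 with Mt3 over cells was 0.618 without the low-Malat1 cells.

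No paired analysis was possible because the labels number the mice through all groups and pair none of them. Depth was uneven outside astrocytes, from 0 to 19 molecules per mouse for Mt2 in cells labelled olig precursor to 8 to 530 for Mt3 in neurons. Standard errors of the log2 fold changes ran from 0.22 to 0.23 in astrocytes and from 0.23 to 1.07 in other classes. Olanzapine 1 and 2 had 14 astrocytes each.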

Other observations

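Within the astrocyte class the clusters made without the 3 genes differed in level, with all mice summed and no test. The largest, 698 cells with a median of 3752 UMIs, held 11388 CPM of Mt1 and 6633 CPM of Mt3, and a cluster of 656 cells led by Htra1, Grin2c and F3, with a median of 1714 UMIs, held 3058 and 1766 CPM. A cluster of 177 cells with 445 CPM of Malat1 held 26215 CPM of Mt1 and 15142 CPM of Mt3. Aldoc had the same order over these clusters, at 1577 CPM in the 656 cells, 5417 in the 698 and 10878 in the 177. Ependymal-like cells (17 cells), which line the ventricle, held 10975 CPM of Mt1 and 11213 CPM of Mt3, with Aldoc at only 397 CPM. Clustering the astrocytes alone gave a cluster of 93 cells with raised ependymal markers, at 8840 CPM of Mt1 and 6940 CPM of Mt3. Aldoc was at 2274 CPM there, so the 93 cells are not taken to be ependymal cells alone. Which cells the 2 clusterings shared was not examined. In the clustering of all cells, an unnamed cluster of 51 cells led by Thbs4 held 6658 CPM of Mt1 and 3215 CPM of Mt3.

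Low-Malat1 cells were found in every class, from 2.58% of cells labelled olig precursor to 10.1% of the class other and 12.7% of astrocytes. With mice summed, Mt1 was higher in the low-Malat1 cells than in the rest of cells labelled oligodendrocyte (756 against 464 CPM), but lower in neurons (198 against 381 CPM). Mt2 was at 727 against 250 CPM in neuroblasts and 694 against 357 CPM in the class other.

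Over thinned astrocytes, Mt1 correlated within mice with the cell's UMI total before thinning at 0.327 on average (-0.07 to 0.632 over 13 mice), with genes detected at 0.412 and with the mitochondrial share at -0.26.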
